A study of Mus musculus with 10 samples.

Results

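Epithelial-mesenchymal transition (EMT) regulators were followed as 8 named genes: Zeb1, Zeb2, Snai1, Snai2, Twist1, Esrp1, Epcam and Grhl2. They were chosen as listed symbols in the platform's annotation, and all 8 of the 18193 genes with a single symbol there were measured, by 20 of the 45037 probe sets that are not controls. A gene's value is that of its brightest probe set, meaning the highest average across all 10 arrays, and its other probe sets are given beside it. All levels are RMA values in log2 units, as deposited.

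Mouse cells of 3 kinds were hybridised. The titles assign 3 arrays to induced pluripotent stem (iPS) cells. These had been reprogrammed from neural stem cells (NSC) of adult brain by a pMX-based retroviral vector carrying mouse Oct4 cDNA and kept on irradiated mouse embryonic fibroblasts with LIF. A further 3 were titled NSC that had been differentiated from Oct4 iPS cells, and 4 NSC from adult brain. The donor mice of all 3 groups carried the OG2 transgene, an Oct4-eGFP reporter, and Rosa26 neo/lacZ, and were crossed with ICR females per the labels, which give no age. iPS colonies were picked for their green fluorescence and expanded, and the labels do not say how many clones they stand for or whether the arrays of a group came from separate cultures. The p values therefore measure the spread between these arrays, which may be technical.

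The marker genes contradicted the titles of both reprogrammed groups. Pou5f1, which encodes Oct4, averaged 13.29 ± 0.25 (SD, n = 3) on the arrays labelled iPS-derived NSC, 4.66 ± 0.15 (n = 3) on those labelled iPS and 4.55 ± 0.05 (n = 4) in brain NSC. The mean of 8 pluripotency genes lay at 12.12 to 12.23 on the arrays labelled iPS-derived NSC, at 4.66 to 4.73 on those labelled iPS and at 4.69 to 4.82 in brain NSC. The mean of 8 neural stem cell genes lay at 5.81 to 5.91, 10.57 to 10.68 and 10.44 to 10.75 in the same order. The titles were kept as deposited, so each direction below follows names that these genes go against. Arrays within each group correlated at 0.9898 or more over all genes, and no pair was identical.

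EMT is the switch by which epithelial cells lose their junctions and polarity and take on a motile, mesenchymal form. Zeb, Snail and Twist proteins drive it. The Zeb and Snail proteins repress epithelial genes by binding E-boxes (CACCTG, or CAGGTG on the other strand) in their promoters. Grhl2 is a transcription factor that maintains the epithelial state, Esrp1 directs epithelial splicing, and Epcam is a cell surface adhesion protein of epithelia. Embryonic stem cells have epithelial features, neural stem cells express Zeb factors, and reprogramming of mesenchymal cells is known to begin with the reverse switch.

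Promoter windows of 300 bases, from 250 before to 50 after the transcript start, were read from RefSeq for GRCm38.p6. Zeb2, Snai1, Twist1 and Epcam matched. Windows of Zeb1, Snai2, Esrp1 and Grhl2 were not analysed here. The windows were searched on both strands for the E-box and for ACCGGT, the palindromic core of the Grhl motif. Epcam and Snai1 are shown, since theirs held a match and both genes were higher on the arrays with Pou5f1. Capitals mark each match.

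Epcam, chr17:87635729-87636028, + strand: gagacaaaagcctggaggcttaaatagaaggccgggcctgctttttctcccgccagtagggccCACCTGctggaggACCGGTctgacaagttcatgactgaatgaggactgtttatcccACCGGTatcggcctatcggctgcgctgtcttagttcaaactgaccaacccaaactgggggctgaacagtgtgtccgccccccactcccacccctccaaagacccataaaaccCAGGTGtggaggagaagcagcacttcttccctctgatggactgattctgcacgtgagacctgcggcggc
Snai1, chr2:167537945-167538244, + strand: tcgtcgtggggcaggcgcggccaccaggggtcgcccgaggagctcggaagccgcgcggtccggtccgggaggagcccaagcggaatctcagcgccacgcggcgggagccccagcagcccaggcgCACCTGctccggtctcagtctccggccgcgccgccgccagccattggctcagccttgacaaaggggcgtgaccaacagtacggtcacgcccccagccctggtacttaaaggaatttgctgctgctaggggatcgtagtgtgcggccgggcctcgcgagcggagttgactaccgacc

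In the Epcam window 2 E-boxes began 187 and 19 bases before the start, and 2 Grhl cores began 174 and 131 bases before it. In the Snai1 window 1 E-box began 126 bases before the start. The 4 windows of Zeb2 and the 1 of Twist1 held neither motif. Of 32851 promoter windows in the table, 20.2% held at least 1 E-box and 2.88% at least 2, while 2.33% held at least 1 Grhl core and 0.0548% (18 windows) at least 2. The Epcam window was the 1 window of 32851 with at least 2 of each, a combination counted after the match had been seen. A match is a description of these letters and not evidence of binding.

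The Zeb repressors were high where the neural genes were high. Zeb1 stood at 12.59, 12.58 and 12.59 on the arrays labelled iPS, at 12.34, 12.24, 12.27 and 12.49 in brain NSC, and at 7.18, 7.60 and 7.26 on those labelled iPS-derived NSC. The last 3 arrays lay below the other 7. Their mean was 7.35. It fell by 5.24 ± 0.12 (SE; 37.8-fold) from the arrays labelled iPS to those labelled iPS-derived NSC (limma adjusted p = 1.56e-13), and was lower than in brain NSC by 31.7-fold (adjusted p = 1.1e-13).

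Zeb2, the paralogue, read 8.0, 8.32 and 8.06 on the 3 arrays labelled iPS. Brain NSC gave 7.64, 8.25, 7.64 and 7.74, and the arrays labelled iPS-derived NSC 3.76, 3.80 and 3.61. These 3 low values lay under the lower quartile of all probe sets, which was 4.22 to 4.41 over the arrays, so the fold is not exact. Zeb2 fell by 4.40 ± 0.15 between the 2 reprogrammed groups (adjusted p = 1.45e-11), and its difference from brain NSC was -4.09 ± 0.14 (adjusted p = 1.28e-11). Between the arrays labelled iPS and brain NSC neither Zeb gene was called: the difference was 0.25 ± 0.11 for Zeb1 (adjusted p = 0.121) and 0.31 ± 0.14 for Zeb2 (adjusted p = 0.156). With the mean of its probe sets Zeb1 differed by 0.44 (adjusted p = 0.00244), and without replicate 4 of brain NSC by 0.30 (adjusted p = 0.0445), both under 2-fold. Over all alternatives the adjusted p of Zeb1 ran from 0.00244 to 1.0. Zeb2 differed by 0.45 without replicate 2 of brain NSC (adjusted p = 0.0156), also under 2-fold.

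Twist1, a basic helix-loop-helix factor of mesenchyme, had group means in the same order as the brightest probe sets of Zeb1 and Zeb2. Its gap between the arrays labelled iPS and brain NSC was wider. It read 7.96, 8.40 and 8.06 on the 3 arrays labelled iPS. Brain NSC gave 6.60, 6.52, 6.64 and 7.0, and the arrays labelled iPS-derived NSC 4.95, 4.23 and 4.62. No pair of groups overlapped. Twist1 was the 1 member called between the arrays labelled iPS and brain NSC, where it was higher by 1.45 ± 0.17 (2.73-fold; adjusted p = 8.03e-05). On the arrays labelled iPS-derived NSC Twist1 was lower than on those labelled iPS by 3.54 ± 0.18 (limma adjusted p = 6.8e-10). It was also lower there than in brain NSC (-2.10 ± 0.17, limma adjusted p = 8.13e-08).

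Snai1 rose where Zeb1, Zeb2 and Twist1 fell, and its paralogue Snai2 was not called. Snai1, the founding Snail repressor, read 5.93, 6.01 and 6.11 on the arrays labelled iPS-derived NSC, 4.31, 4.40 and 4.71 on those labelled iPS, and 4.47, 4.37, 4.08 and 4.34 in brain NSC. The first 3 values lay above the other 7, which were near the lower quartile of all probe sets. Snai1 rose by 1.54 ± 0.13 (2.92-fold; adjusted p = 1.32e-07) from the arrays labelled iPS, and was 3.26-fold higher than in brain NSC (adjusted p = 2.02e-08).

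Snai2, also called Slug, is a neural crest and mesenchymal repressor. Its brightest probe set, 1447643_x_at, has probes that can match other transcripts and a source sequence that is not listed. On it Snai2 read 4.57, 5.07 and 5.04 on the arrays labelled iPS-derived NSC. The values were 4.21, 4.15 and 3.89 on those labelled iPS and 4.22, 3.98, 3.84 and 3.98 in brain NSC. The first group did not overlap the others, but the difference from the arrays labelled iPS was 0.81 ± 0.15 (adjusted p = 0.000276) and from brain NSC 0.89 ± 0.14 (adjusted p = 6.21e-05), both under 2-fold. Snai2 was therefore not called in any comparison, though without replicate 1 of the arrays labelled iPS-derived NSC its difference from brain NSC was 1.05 and called. Its second probe set, designed from a RefSeq mRNA, gave differences of 0.37 and 0.29, on arrays where it did not exceed 4.25.

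The epithelial members were highest on the arrays with high Pou5f1. Esrp1 read 8.65, 8.95 and 8.86 on the arrays labelled iPS-derived NSC, 3.80, 4.05 and 3.62 on those labelled iPS and 3.72, 4.03, 3.89 and 4.15 in brain NSC. It rose by 5.00 ± 0.14 (31.9-fold; adjusted p = 1.31e-12) between the reprogrammed groups and was 29.3-fold higher than in brain NSC (adjusted p = 7.03e-13), folds that start from below the lower quartile.

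Grhl2 read 9.69, 9.92 and 10.05 on the arrays labelled iPS-derived NSC, 5.96, 5.93 and 5.66 on those labelled iPS and 5.95, 5.87, 6.01 and 5.87 in brain NSC. The first 3 values lay above the other 7. Grhl2 rose by 4.04 ± 0.11 (16.4-fold; adjusted p = 1.83e-12) and stood 3.96 ± 0.11 above brain NSC (adjusted p = 9.54e-13).

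Epcam depended on the probe set. Its brightest, 1447899_x_at, has probes that can match other transcripts, and read 7.92, 7.57 and 7.73 on the arrays labelled iPS-derived NSC, 6.96, 6.98 and 6.89 on those labelled iPS and 6.80, 6.74, 6.69 and 6.69 in brain NSC. On it Epcam differed by 0.80 ± 0.10 (1.74-fold; adjusted p = 9.58e-06) between the reprogrammed groups, which was not called, and by 1.01 ± 0.09 (2.01-fold; adjusted p = 4.06e-07) from brain NSC, which was. That call lies at the 2-fold limit and ended without replicate 1 of the arrays labelled iPS-derived NSC (0.92), without replicate 3 or 4 of brain NSC (1.00 each), with the replicate block (1.00) and with median centring (0.98). The other probe set, 1416579_a_at, read 11.44, 11.36 and 11.48, then 4.84, 5.05 and 5.00, and 4.62, 4.92, 4.55 and 5.08 in the same order of groups. There Epcam rose by 6.46 ± 0.14 (88.2-fold; adjusted p = 1.35e-13 over all probe sets) and stood 6.63 ± 0.13 above brain NSC.

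**Figure D1:**
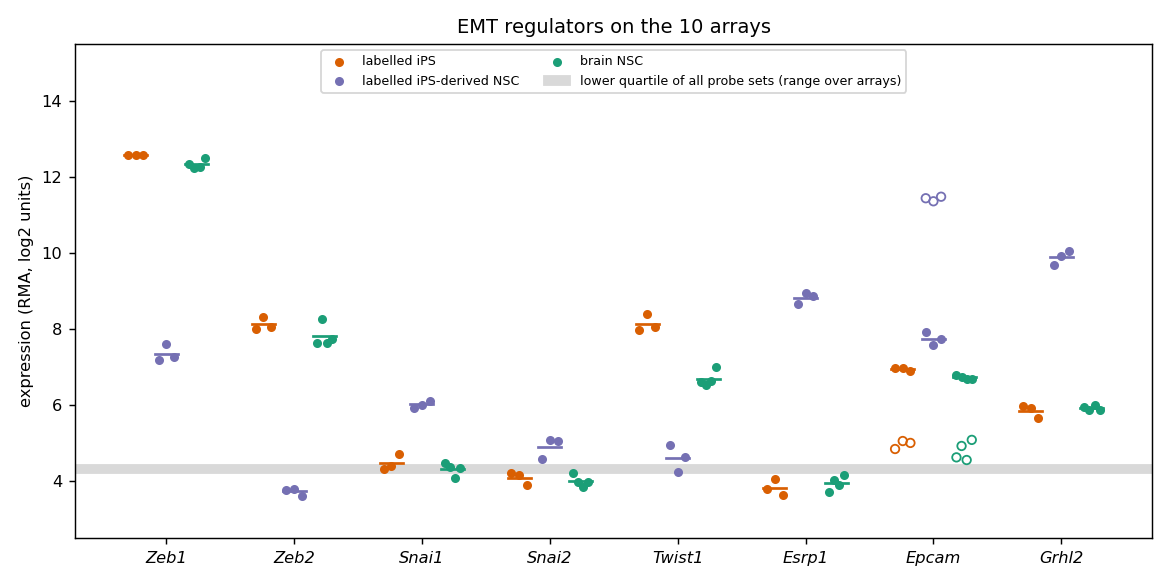
Deposited RMA values (log2 units, vertical axis) of the 8 genes on each of the 10 arrays; points are arrays, short lines are group means, open circles are the second probe set of Epcam and the grey band is the lower quartile of all probe sets. Zeb1, Zeb2 and Twist1 are lowest, and Snai1, Snai2, Esrp1, Epcam and Grhl2 highest, on the 3 arrays labelled iPS-derived NSC.

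Counted together, 3 members rose (Esrp1, Grhl2 and Snai1) and 3 fell (Zeb1, Zeb2 and Twist1) from the arrays labelled iPS to those labelled iPS-derived NSC. Calls required both an adjusted p below 0.05 and a change of 2-fold or more. Over all 18193 genes 25.3% were called in this comparison, 10.8% higher and 14.4% lower. The groups did not overlap for any of the 8 members, as for 69.5% of all genes. Against brain NSC 4 members were higher, with Epcam added, and 3 lower, beside 25.4% of all genes called, 11.3% higher and 14.0% lower; again none of the 8 overlapped, as for 61.3% of all genes. These 2 comparisons share the arrays labelled iPS-derived NSC and are not independent. Between the arrays labelled iPS and brain NSC 1 member was higher and 0 lower by limma, beside 1.84% of all genes called, 0.951% higher and 0.89% lower. That 1 was also the 1 member with an adjusted p under 0.05, and 3 members had an unadjusted p under 0.05. The groups did not overlap for 3 members (Zeb1, Twist1 and Epcam), as for 28.3% of all genes.

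**Figure D2:**
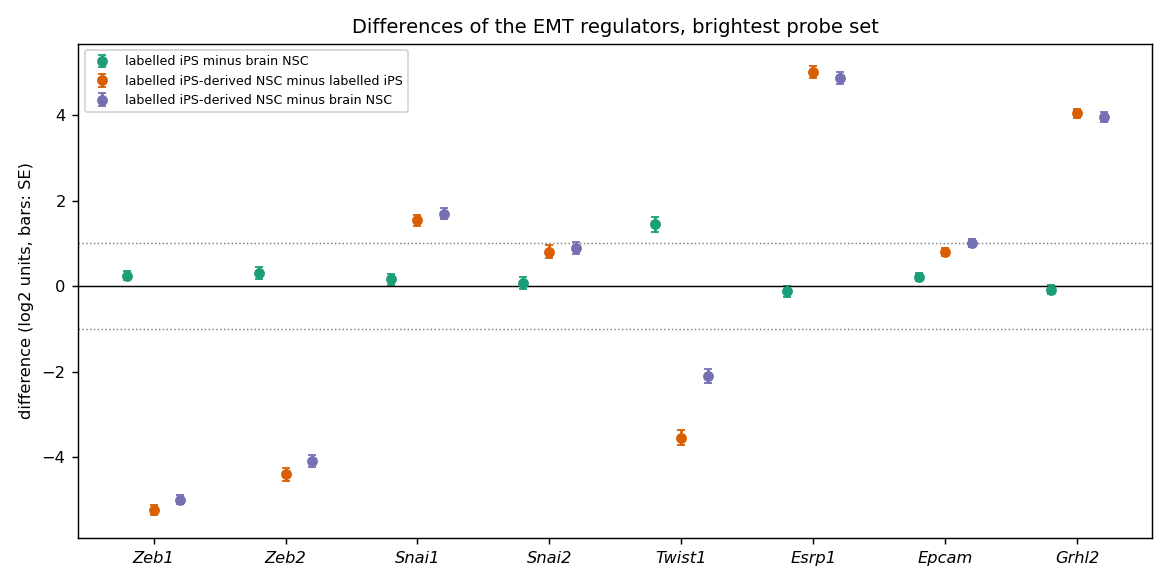
Differences of the 8 genes on the log2 scale (vertical axis, brightest probe set) in the 3 comparisons; points are limma estimates, bars are SE, and dotted lines mark 2-fold. Twist1 alone passes 2-fold between the arrays labelled iPS and brain NSC, at 1.45.

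The 20 probe sets showed how far each gene's value rests on one of them. Of the 4 for Zeb1, 3 were called lower on the arrays labelled iPS-derived NSC than on those labelled iPS (differences of -5.24, -2.71 and -1.87). The fourth, 1420243_at, differed by -0.05 and had group means of 4.20, 4.15 and 3.79, at or below the lower quartile. Of the 5 for Zeb2, 3 were called lower (-4.40, -3.07 and -2.28) and 2 gave -0.42 and -0.13. Of the 4 for Grhl2, 2 were called higher (4.04 and 1.24) and 2 gave 0.52 and 0.41. Snai1, Twist1 and Esrp1 have 1 probe set each, so their values have no such check. In all, 12 of the 20 were called, beside 20.5% of the 45037 probe sets in this comparison. Against brain NSC 12 were also called, beside 20.6%, but not the same 12. There 1446127_at of Zeb1 (-0.94) was not called, which left 2 of its 4 called lower, and 1447899_x_at of Epcam (1.01) was called.

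Between the arrays labelled iPS and brain NSC 1 of the 20 probe sets was called, beside 2.14% of all, but probe sets of the Zeb genes disagreed. Zeb2 was higher by 0.31 on 1422748_at and lower on 1456389_at, which in brain NSC read 7.64, 7.45, 7.49 and 6.81, against 6.24, 6.74 and 6.35 on the arrays labelled iPS. The groups did not overlap on the latter, and its difference was -0.91 ± 0.18 (adjusted p = 0.00423), under 2-fold. For Zeb1 the probe set 1446127_at gave 0.93 ± 0.20 (adjusted p = 0.00613) beside 0.25 on the brightest. Where in the transcripts these probe sets lie was not analysed here.

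**Figure D3:**
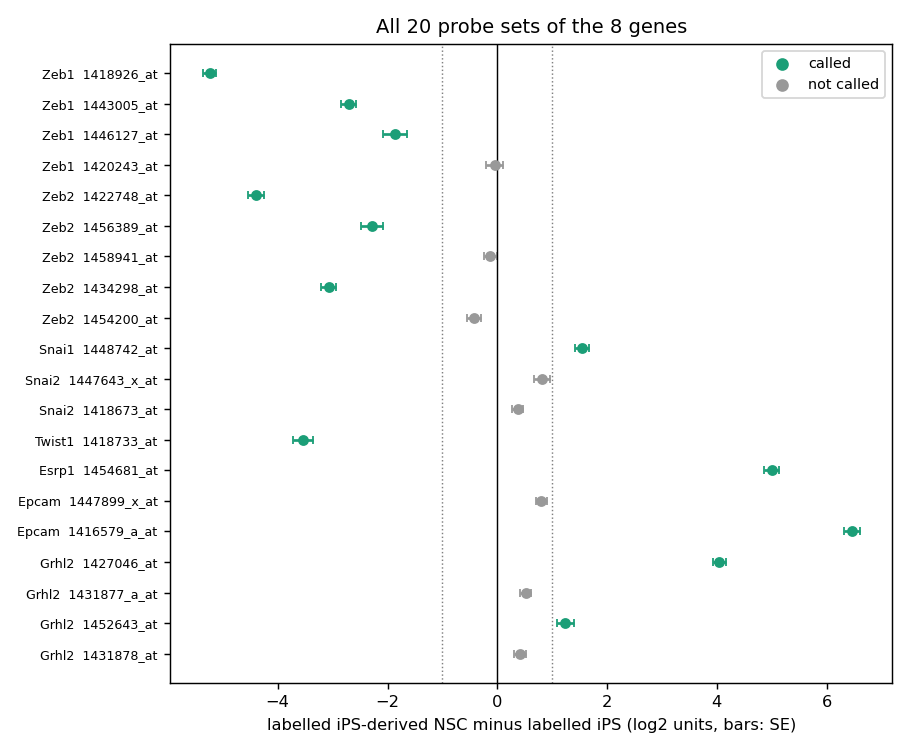
Estimated difference between the arrays labelled iPS-derived NSC and those labelled iPS (horizontal axis, log2 units) for each of the 20 probe sets; bars are SE, green points were called and grey points were not. The 2 probe sets of Epcam stand at 0.80 and 6.46.

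Genes listed as relatives of the members, with Ovol1 and Ovol2 of another family among them, were mostly higher with the epithelial members. Of 7 measured, 6 were called higher on the arrays labelled iPS-derived NSC than on those labelled iPS and 0 lower. Over all genes 10.8% were higher and 14.4% lower. The median difference was 1.52, beside 0.123 over all genes. The differences of Grhl3 and Ovol1 start from means of 4.01 and 4.09, below the lower quartile, and are not exact. Grhl3, an epidermal Grainyhead factor, rose by 2.86 ± 0.12 and Grhl1 by 1.52 ± 0.20. Ovol2, a zinc finger repressor that opposes EMT, rose by 2.01 ± 0.09 and Ovol1 by 1.06 ± 0.13. Esrp2 rose by 1.07 ± 0.27 (adjusted p = 0.00396), with arrays at 6.23, 6.97 and 6.64 against 5.75, 5.18 and 5.70. It was not called against brain NSC (0.66), where 4 relatives were higher, beside 11.3% of all genes. Snai3, the remaining Snail gene, rose by 1.56 ± 0.12, from 5.93 to 7.50. Twist2, the paralogue of Twist1, had means of 4.31 on the arrays labelled iPS, 4.30 on those labelled iPS-derived NSC and 4.09 in brain NSC, and a difference of -0.02 ± 0.15 between the reprogrammed groups. These levels lie at or below the range of the lower quartile, where a fall could not be measured.

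Most epithelial junction and polarity genes, the textbook targets of Zeb and Snail repression, rose where Zeb1 and Zeb2 fell and Snai1 rose. A link between them was not tested. Of 25 measured, 18 were called higher and 0 lower on the arrays labelled iPS-derived NSC than on those labelled iPS, with a median of 2.46. Over all genes 10.8% were higher and 14.4% lower, with a median of 0.123. Cdh1, the epithelial cadherin that Zeb1 and Snai1 repress, read 12.49, 12.36 and 12.42 against 3.68, 3.48 and 3.48. Llgl2, a polarity gene, rose by 5.21 ± 0.17, and the simple epithelial keratins Krt18 and Krt8 by 4.39 and 3.65. Cdh1 and Krt18 started below the lower quartile, at means of 3.55 and 3.92, so their differences are not exact. The 7 not called differed by -0.01 (Marveld3) to 0.91 (Crb3). Against brain NSC 18 were higher and 0 lower, beside 11.3% and 14.0% of all genes. Between the arrays labelled iPS and brain NSC 0 of 25 were called, beside 1.84% of all genes. Their differences ran from -0.41 to 0.40.

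Other epithelial transcription factors were mixed, with 3 of 9 measured called higher, 1 lower and a median of 0.36. The shares of all genes were 10.8% higher and 14.4% lower. Klf5, also a stem cell factor, rose by 4.71 ± 0.20, Tfap2c by 3.41 ± 0.13 and Elf3 by 1.56 ± 0.13. Tfap2c started from a mean of 3.78, below the lower quartile. Tfap2a, which also acts in neural crest, fell by 3.62 ± 0.12. It was the 1 member of this list called between the arrays labelled iPS and brain NSC, beside 1.84% of all genes. There it was higher by 1.76 ± 0.12. The epidermal and mammary factors Trp63 and Elf5 gave 0.29 and 0.27 and were not called.

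Among other factors that induce EMT and their E protein partners, 8 of 11 measured were called lower and 1 higher, with a median of -1.46. Of all genes 14.4% were lower and 10.8% higher. Tcf4, an E protein that pairs with Twist1, fell by 4.56 ± 0.17 and Sox9 by 3.94 ± 0.17. Sox9 is also on the neural list used to check the titles. Foxq1 was the 1 that rose (2.14 ± 0.10), with values of 7.50, 7.76 and 7.65 against 5.43, 5.56 and 5.51. Prrx2 was the 1 called higher on the arrays labelled iPS than in brain NSC (1.08 ± 0.11), beside Twist1 among the members. There 0.951% of all genes were called higher.

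The corepressors that Zeb and Snail proteins recruit were split. Ctbp1 fell by 1.99 ± 0.22 while its paralogue Ctbp2 rose by 1.64 ± 0.10, and Hdac2 fell by 1.40 while Hdac1 rose by 1.44. Of the 12, 3 were higher, 2 lower and 7 not called, with a median of 0.19. Over all genes 10.8% were higher and 14.4% lower, with a median of 0.123. Kinases, ubiquitin ligases and a phosphatase that control Snail and Twist protein turnover were split too, with 2 of 9 higher and 3 lower. The shares of all genes are the same 10.8% and 14.4%. The phosphatase, Ppp4c, was among those higher (1.32). Gsk3b, which phosphorylates Snai1 for degradation, differed by -1.23 between the reprogrammed groups and by -2.15 from brain NSC, both called.

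Of 16 signals that induce EMT, 5 fell and 3 rose, with a median of -0.53, beside 14.4% of all genes lower and 10.8% higher. Over the alternatives 4 to 6 were lower and 1 to 3 higher. The receptors Egfr and Tgfbr2 fell by 6.27 and 4.61 and the ligand Tgfb2 by 3.87, while Pdgfra rose by 2.40, Met by 1.47 and Tgfb1 by 1.13. Egfr and Tgfb2 fell to means of 4.43 and 4.68, near the lower quartile, so their falls are not exact. Between the arrays labelled iPS and brain NSC, Tgfb2 (1.35) and Fgfr1 (1.07) were higher and the hepatocyte growth factor receptor Met was lower (-2.31). On the arrays labelled iPS the mean of Met was 3.98, under the lower quartile, so its differences from that group are not exact. Tgfb2 and Fgfr1 were not called with the mean of probe sets (0.91 and 0.77), without probe sets marked _s, _x or _a (0.78 and 0.28) or when tested against 1.5-fold. The call of Fgfr1 also ended without probe sets marked _s or _x (0.95) and without replicate 3 of brain NSC (1.00). Of 9 partners of Epcam, Cldn7 and Lef1 rose by 2.46 and 1.49. Adam10 and Adam17, proteases that cleave surface proteins, fell by 2.04 and 1.08. The shares of all genes are again 10.8% higher and 14.4% lower. Of 12 genes whose transcripts Esrp proteins splice, 2 were higher and 3 lower at the gene level, beside the same shares. The largest fall was that of Cd44 (-4.94). The arrays give no splice forms here.

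Mesenchymal genes did not move as a block. Of 16 measured, 3 fell and 7 rose on the arrays labelled iPS-derived NSC against those labelled iPS, with a median of 0.51. Over all genes 14.4% were lower and 10.8% higher, with a median of 0.123. The neural cadherin Cdh2 fell by 5.89 ± 0.14, the matrix protein tenascin C (Tnc) by 5.45. The filament protein vimentin (Vim) fell by 2.65, to 11.39, 11.16 and 11.25. Fibronectin (Fn1) rose by 2.96 ± 0.16, Tagln by 2.23, the collagen crosslinker Lox by 2.04 and Acta2 by 1.68. Against brain NSC 7 were higher and 4 lower, beside 11.3% and 14.0% of all genes.

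Fibroblast markers were also measured, since iPS cells were kept on fibroblast feeders. The mean of 15 feeder fibroblast markers was 6.46, 6.15 and 5.53 on the arrays labelled iPS-derived NSC, 5.17, 5.21 and 5.15 on those labelled iPS and 5.02 to 5.08 in brain NSC. Their summed linear level was 988 to 2485, 822 to 848 and 633 to 690. Of the 15, 6 were called higher and 2 lower between the reprogrammed groups, beside 10.8% and 14.4% of all genes. Col3a1 read 7.44, 7.14 and 5.12 against 3.44 to 3.91, while Lum and Fap had means below the lower quartile in all 3 groups. Replicate 3 among the arrays labelled iPS-derived NSC had the lowest marker mean of its group and replicate 1 the highest. On replicates 1, 2 and 3 of that group Snai1 read 5.93, 6.01 and 6.11 and Snai2 4.57, 5.07 and 5.04. Fn1 read 11.99, 11.71 and 11.94 and Lox 7.60, 7.64 and 6.41. Tagln read 7.79, 7.61 and 7.25 and Acta2 9.88, 9.44 and 8.80. Pdgfra, one of the signals above, read 9.70, 9.40 and 8.97. The part of fibroblasts in the values of Snai1, Snai2, Fn1, Lox, Tagln, Acta2 and Pdgfra was not tested. In bulk RNA, fewer cells of a type and less RNA per cell cannot be told apart. Among markers of other cells, of 10 microglial genes 1 (Cd68), of 10 endothelial and pericyte genes 3 (Pecam1, Esam and Anpep) and of 6 neural crest genes 1 (Foxd3) were called higher between the reprogrammed groups, beside 10.8% of all genes, while the neural crest gene Ets1 was called lower. The 7 endothelial and pericyte genes not called differed by 0.23 to 0.68, and the 4 neural crest genes not called by -0.02 to 0.72. Whether such cells were present was not tested.

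**Figure D4:**
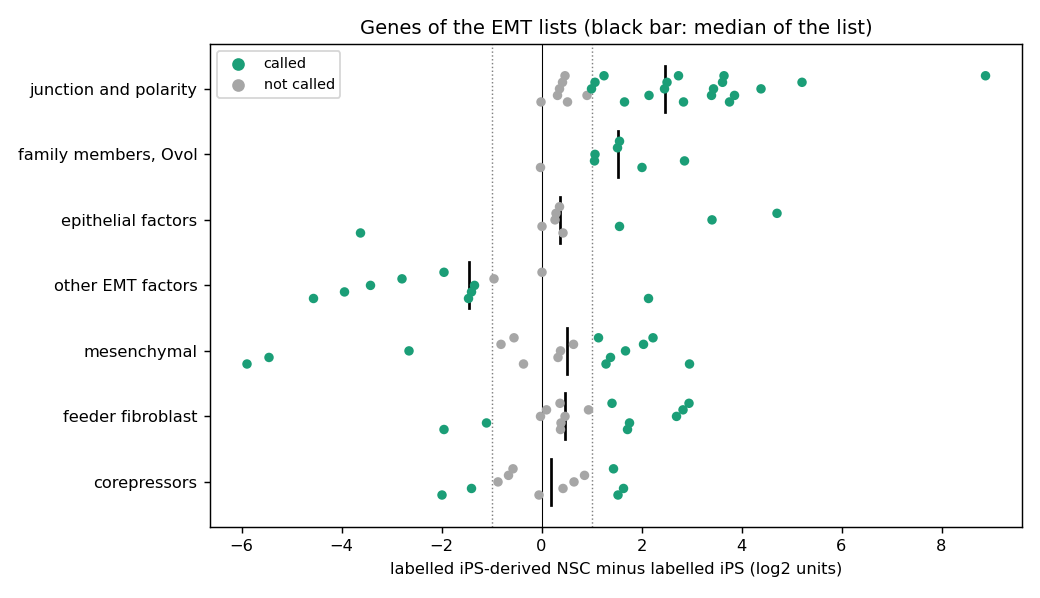
Differences between the arrays labelled iPS-derived NSC and those labelled iPS (horizontal axis, log2 units) for the measured genes of 7 lists; each point is a gene, green points were called, black bars are medians and dotted lines mark 2-fold. Junction and polarity genes lie at a median of 2.46 and other EMT factors at -1.46.

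Genes with the pattern most like each called member were found by the root mean square difference of centred values over the 10 arrays, a description without a test in which 3 groups set most of the likeness. For Zeb1 they were Ntn4, a netrin (0.09 log2 units), the receptor Gfra2 (0.13) and Nfib, a nuclear factor I gene (0.13). Zeb2 was nearest to Rgs7 (0.17), Ifit2 (0.19) and Arnt2 (0.20). Snai1 had Clu (0.12), the predicted gene Gm17586 (0.13) and Ppcs (0.13) as its nearest. Esrp1 was followed most closely by Rnf113a2 (0.14), Ooep (0.15) and Slc25a31 (0.17), and Grhl2 by Lrrc34 (0.12), Tmem30b (0.13) and Gpr160 (0.13). Twist1 had no gene as near: Spry1, a feedback inhibitor of receptor tyrosine kinase signals, was at 0.22, with means of 11.92 on the arrays labelled iPS, 10.76 in brain NSC and 8.40 on those labelled iPS-derived NSC. The brightest probe set of Epcam lay nearest to Poli (0.07), Ybx2 and Chst5 (0.08 each), genes that moved as little as it did.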

How the data were processed

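Gene expression was measured on 10 Affymetrix arrays. The authors deposited 1 log2 value for each probe set, computed by RMA per the submitters' processing notes, with a version not given in the sources used here. This step is meant to equalise the distributions of the arrays, so a shift shared by most genes may be largely removed. It also compresses differences between dim genes. The deposited values still differed, with upper quartiles of 7.79 to 8.12 over the arrays. A further quantile normalization changed the genes called between the reprogrammed groups from 1970 higher and 2628 lower to 2224 and 2370. The values hold no detection calls, and the number of arrays limits the precision. Of 45101 probe sets, 64 were controls, 34945 had 1 symbol in the platform annotation, 932 several and 9160 none; the last 2 kinds were left out of the gene tests. Entrez identifiers matched RefSeq for 34741 of the 34945 and changed 0 symbols.

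Differences were fitted across all genes with limma 3.58.1 in R 4.3.3 (lmFit and eBayes, 3 groups, 7 residual and 5.95 prior degrees of freedom), with two-sided p values adjusted by the Benjamini-Hochberg method over 18193 genes, or over 45037 probe sets where single probe sets are given. The fit was tested on simulated data. The members and lists were chosen with earlier results of these data known, so a pattern in them is no independent support. Named genes are the members, their relatives, the largest called rise and fall of each list, the 3 nearest patterns of each called member and the genes that check the titles; a few others (Llgl2, Krt18, Marveld3, Crb3, Sox9, Fgfr1, Hdac1, Hdac2, Krt8, Trp63, Elf5, Elf3, Tfap2c, Tagln, Lox, Acta2, Vim, Tnc, Tgfbr2, Tgfb1, Lef1, Adam17, Lum, Fap, Esam and Anpep) were chosen after their values were seen. Alternatives used the mean of a gene's probe sets, fewer probe sets, quantile normalization, median centring, no dim genes (highest group mean under 6), 2 groups per fit, trend and robust variances, a test against 1.5-fold, the replicate number as a block, and 1 array left out in turn. Protein comparisons were not run. Some listed genes are not reported here. Figures were drawn with Python 3.11.15 and matplotlib 3.10.9.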

Additional observations from a re-analysis of the deposited data

Results flagged for a closer look

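Zeb2 in brain NSC was the 1 value of 20 probe sets whose group of 4 arrays held an array apart from the rest. Replicate 2 read 8.25 on 1422748_at, against 7.64 to 7.74 on the other 3. Without that array Zeb2 was higher on the arrays labelled iPS than in brain NSC by 0.45 (limma adjusted p = 0.0156), under 2-fold. Chance alone gives about 1 such array in 20 groups. On the probe sets 1456389_at and 1434298_at the same array read 7.45 and 6.54, within or next to the others.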

How the results depend on the processing

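Of 498 values of single members under alternatives, 483 kept their direction and their side of the threshold. The counts of called members stayed within 1.5 times under every alternative run: 1 higher and 0 lower for the arrays labelled iPS over brain NSC, 3 to 4 higher and 3 lower for those labelled iPS-derived NSC over those labelled iPS, and 3 to 4 higher and 3 lower over brain NSC. Epcam moved most. Its rise between the reprogrammed groups was 3.63 with the mean of its probe sets, 1.03 with quantile normalization, and 6.46 without probe sets marked _s or _x or with the probe set of the highest single array, both added after seeing the data; without those marked _a as well it has none. Its call over brain NSC ended with median centring (0.98), without iPS-derived NSC replicate 1 (0.92) and, at 1.00, without brain NSC replicate 3 or 4. Snai2 passed over brain NSC without iPS-derived NSC replicate 1 (1.05). With the mean of probe sets, which includes dim ones, Zeb1 differed between the reprogrammed groups by -2.47, Zeb2 by -2.06 and Grhl2 by 1.55, all called. Signs turned for differences of labelled iPS over brain NSC that had not been called: Zeb2 (-0.05) and Snai2 (-0.00) with the mean of probe sets, Snai2 (-0.08) without probe sets marked _s, _x or _a, or _s or _x, and Grhl2 (0.02) without iPS replicate 3, in a range of -0.13 to 0.02 over arrays left out. Between the arrays labelled iPS and brain NSC, 335 of all genes were called, but 223 with the mean of probe sets, 183 when tested against 1.5-fold, and 537 both with the replicate block and without brain NSC replicate 4, which is alone in its block. With the replicate number as a block, Epcam over brain NSC was 1.00 and no longer called, and Twist1 was 1.55 higher on the arrays labelled iPS. Same-numbered arrays had deviations correlated at -0.21 to 0.133, other pairs at -0.37 to 0.316, so the numbers were not taken as pairs. Junction genes called higher numbered 15 to 20 between the reprogrammed groups over all alternatives, and mesenchymal genes 5 to 8.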
